A study of Mus musculus with 15 samples.

Results

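The 10 genes described here encode the coat of the lipid droplet and the enzymes that fill and empty it, measured in whole mouse adrenal glands before, at the end of and after treatment with the synthetic glucocorticoid dexamethasone. They are the droplet coat genes Plin1, Plin2, Plin3 and Plin4, the droplet fusion gene Cidec, the lipase genes Lipe and Pnpla2, the lipase activator gene Abhd5 and the triglyceride synthesis genes Dgat1 and Dgat2. Probe sets were taken by gene symbol, and no measured value entered that rule, although earlier results of these data were known when the genes were listed. Each of the 10 was represented by 1 probe set annotated to 1 gene, of 21439 genes tested on the array. The arrays came from wild-type C57BL/6J male mice, with an age of 6 weeks given for every array. The 4 groups were control (glands taken before treatment, 4 arrays), withdrawal (the end of 14 days of dexamethasone in drinking water, 3 arrays), day 3 (4 arrays) and day 7 (4 arrays) of recovery. Because the controls were taken before the treatment started, treatment and elapsed time cannot be told apart in any comparison with them. The arrays are titled as biological replicates, and the number of glands or mice behind each array is not given in the sources used here.

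A lipid droplet is a core of neutral lipid under a single layer of phospholipid, and the perilipins on that layer set which enzymes reach the core. In adipocytes the core is mostly triglyceride, made in its last step by the DGAT enzymes and released by adipose triglyceride lipase (Pnpla2, which Abhd5 activates) and then hormone-sensitive lipase (Lipe). In the adrenal cortex the droplets hold mainly cholesteryl esters, the stored precursor of steroid hormones, and hormone-sensitive lipase, activated through cAMP and protein kinase A under the pituitary hormone ACTH, is the main enzyme known to release that cholesterol. Dexamethasone lowers ACTH through feedback on the pituitary.

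Promoter windows are shown for Lipe and Abhd5, whose withdrawal arrays lay below every other array, and for Plin2, whose window held matches to 2 of the 4 motifs searched. RefSeq (GRCm38.p6) gave windows for 8 of the 10 genes, each from 250 bases before the annotated start to 50 after it. The windows below are chr7:25395938-25396237 on the minus strand for Lipe, which has a second window without a match, chr9:122351366-122351665 on the plus strand for Abhd5, and chr4:86670010-86670309 on the minus strand for Plin2. Capitals mark the motif matches.
Lipe: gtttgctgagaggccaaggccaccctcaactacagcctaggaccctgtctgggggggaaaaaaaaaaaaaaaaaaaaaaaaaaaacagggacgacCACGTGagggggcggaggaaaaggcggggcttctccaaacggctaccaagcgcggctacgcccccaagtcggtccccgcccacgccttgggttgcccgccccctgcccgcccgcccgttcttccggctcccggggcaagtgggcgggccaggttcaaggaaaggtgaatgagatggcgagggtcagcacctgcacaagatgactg
Abhd5: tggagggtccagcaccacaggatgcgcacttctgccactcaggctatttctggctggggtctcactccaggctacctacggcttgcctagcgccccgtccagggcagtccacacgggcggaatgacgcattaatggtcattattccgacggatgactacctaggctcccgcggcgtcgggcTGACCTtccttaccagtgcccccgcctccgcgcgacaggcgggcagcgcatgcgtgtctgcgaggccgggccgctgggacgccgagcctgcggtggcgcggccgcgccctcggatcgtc
Plin2: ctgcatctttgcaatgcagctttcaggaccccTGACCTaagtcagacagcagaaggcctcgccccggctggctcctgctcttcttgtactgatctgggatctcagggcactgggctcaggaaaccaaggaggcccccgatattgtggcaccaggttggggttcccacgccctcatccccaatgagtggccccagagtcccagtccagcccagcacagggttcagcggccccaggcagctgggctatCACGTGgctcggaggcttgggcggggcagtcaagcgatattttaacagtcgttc
The motifs were searched on both strands. They were AGGTCA, the core bound by many nuclear receptors, the longer CAAGGTCA that binds steroidogenic factor 1 and contains that core, the cAMP response element TGACGTCA, and the palindromic E-box CACGTG. Of the 10 windows of these genes, only those of Abhd5 and Plin2 held AGGTCA, on the opposite strand, and 16.3% of all 32851 windows held it. Of the same 10 windows, only the Lipe and Plin2 windows shown held the E-box, against 7.15% of all windows. The windows not shown held no match. Neither CAAGGTCA (1.56% of all windows) nor TGACGTCA (1.79%) matched in any of the 10 windows of these genes, which says only that those letters are not in these windows. Dgat1 and Dgat2 are named without a sequence.

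In the test across all genes, 0 of the 10 genes differed between any 2 groups. The test was limma on the log2 values, with Benjamini-Hochberg adjustment over all 21439 genes and a threshold of 0.05. Between withdrawal and control 4.30% of all genes passed, between day 3 and withdrawal 2.25%, and between day 7 and withdrawal 1.88%. The corresponding shares were 0.131% for day 3 against control, 0.0187% for day 7 against control and 0% for day 7 against day 3. With so few genes passing, 0 of 10 is near what these shares give. At an unadjusted p under 0.05, 3 of the 10 differed between withdrawal and control (17.01% of all genes), 4 between day 3 and withdrawal (13.85%) and 3 between day 7 and withdrawal (13.54%). That count was 1 for day 3 against control (10.04%), 0 for day 7 against control (5.95%) and 1 for day 7 against day 3 (7.07%). The median difference of the 10 genes was -0.24 on the log2 scale at withdrawal against control, where all genes had a median of -0.01. It was 0.09 at day 3 and 0.22 at day 7 against withdrawal, beside medians of -0.01 and 0.00 over all genes. In bulk tissue, fewer cells of a type and less RNA per cell cannot be told apart, which applies to every difference below.

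**Figure D1:**
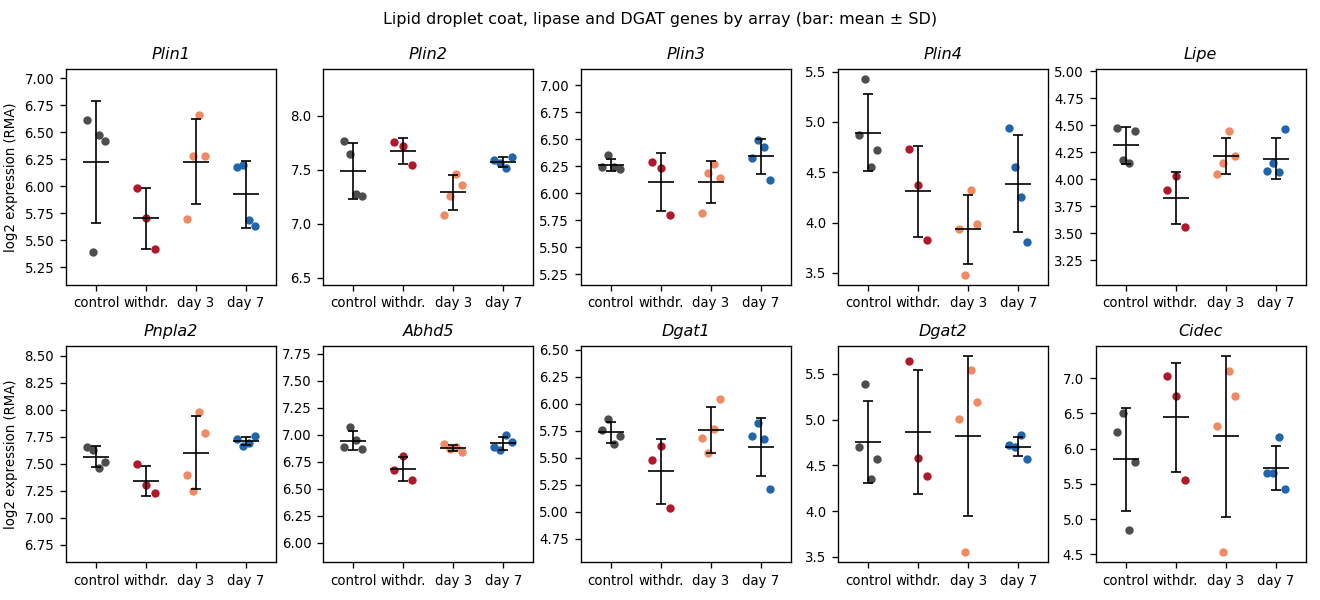
Log2 expression (RMA) of the 10 genes on each array, in the 4 groups, with points for arrays and a bar for the mean ± SD. The 3 withdrawal points lie below all control points for Lipe, Abhd5 and Dgat1, and the points of Dgat2 and Cidec are spread widely within the control, withdrawal and day 3 groups.

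The clearest differences among the lipolysis genes were in Lipe and Abhd5, which were lowest at withdrawal, but neither passed the threshold. Lipe measured 4.48, 4.18, 4.15 and 4.45 on the control arrays, 3.90, 4.03 and 3.56 at withdrawal, 4.05, 4.15, 4.45 and 4.22 at day 3, and 4.08, 4.15, 4.07 and 4.47 at day 7. Its 3 withdrawal arrays lay below all arrays of the other groups, the highest at 4.03 against 4.05 for the lowest day 3 array. The withdrawal mean was 0.49 lower than the control mean on the log2 scale (difference -0.49 ± 0.14 SE, 95% interval -0.79 to -0.18, 1.4-fold, limma adjusted p = 0.0716). Against withdrawal, Lipe was 0.39 higher at day 3 (95% interval 0.08 to 0.69, limma adjusted p = 0.213) and 0.36 higher at day 7 (0.05 to 0.66, limma adjusted p = 0.263). Control, day 3 and day 7 means (4.32, 4.22 and 4.19) differed by less than the SD of their groups. With each array centred on its own median, which puts the median difference of all genes at -0.12 (from -0.01) at withdrawal against control, Lipe passed (-0.60, limma adjusted p = 0.0212). It also passed after a further quantile normalization (0.0186) and with dim probe sets left out (0.0415), and its adjusted p ran from 0.0186 to 0.38 over 17 alternatives.

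Abhd5 encodes the coactivator of adipose triglyceride lipase. Its control arrays measured 6.89, 7.07, 6.95 and 6.87, its withdrawal arrays 6.67, 6.80 and 6.58, its day 3 arrays 6.91, 6.87, 6.89 and 6.84, and its day 7 arrays 6.89, 6.86, 7.00 and 6.93. As with Lipe, all withdrawal arrays lay below all the others, though by a small margin, the highest withdrawal array reaching 6.80 and the lowest of the others 6.84. The difference between withdrawal and control was -0.26 ± 0.08 (95% interval -0.44 to -0.08, 1.19-fold, limma adjusted p = 0.113). With each array centred on its median it was -0.37 (limma adjusted p = 0.0206), and the median difference of all genes moved from -0.01 to -0.12. Abhd5 passed in 1 of 17 alternatives in this comparison, with limma adjusted p-values up to 0.316. Abhd5 was 0.19 higher at day 3 than at withdrawal (0.01 to 0.37, limma adjusted p = 0.331) and 0.23 higher at day 7 (0.05 to 0.41, limma adjusted p = 0.209).

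Pnpla2 measured 7.66, 7.63, 7.46 and 7.52 in controls, 7.50, 7.30 and 7.23 at withdrawal, 7.40, 7.25, 7.98 and 7.79 at day 3, and 7.73, 7.67, 7.69 and 7.76 at day 7. Withdrawal and control arrays overlapped (difference -0.23, 95% interval -0.54 to 0.09, limma adjusted p = 0.48), while the day 7 arrays lay above all withdrawal arrays and above all control arrays. The day 7 mean exceeded the withdrawal mean by 0.37 (0.06 to 0.68, limma adjusted p = 0.254) and the control mean by 0.14 (-0.14 to 0.43, limma adjusted p = 0.935). Its day 3 arrays had the widest spread of the 4 groups, with an SD of 0.34 against 0.04 at day 7.

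Counting the genes whose groups did not overlap, 3 of the 10 were separate between withdrawal and control (Lipe, Abhd5 and Dgat1), where 15.1% of all genes were. Between day 3 and withdrawal Plin2, Lipe and Abhd5 were separate (3 of 10, against 12.1% of all genes), and between day 7 and withdrawal Lipe, Pnpla2 and Abhd5 were (3 of 10, against 12.3%). In each of the other comparisons 1 gene was separate. This was Plin4 for day 3 against control (5.20% of all genes), Pnpla2 for day 7 against control (3.15%) and Plin2 for day 7 against day 3 (3.56%). The comparisons share their withdrawal or control arrays, so these counts are not independent of each other.

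**Figure D2:**
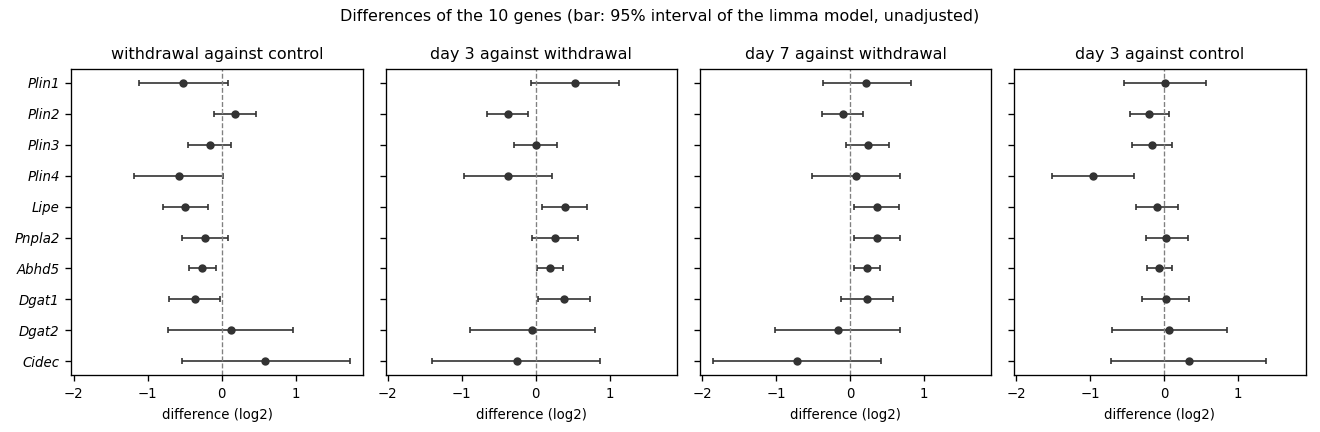
Differences between group means (log2, x axis) for the 10 genes (y axis) in 4 comparisons, with bars for the unadjusted 95% interval of the limma model. The intervals of Lipe, Abhd5 and Dgat1 lie below 0 at withdrawal against control, that of Plin4 lies below 0 at day 3 against control, and those of Dgat2 and Cidec are the widest.

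Among the coat proteins, the values of Plin2 ran in another direction from those of Lipe and Abhd5 between withdrawal and day 3. Plin2 encodes adipophilin, the perilipin found on droplets of most cell types including steroid-producing cells. It measured 7.77, 7.65, 7.28 and 7.26 in controls, 7.76, 7.72 and 7.54 at withdrawal, 7.08, 7.26, 7.46 and 7.36 at day 3, and 7.59, 7.56, 7.52 and 7.62 at day 7. All day 3 arrays lay below all withdrawal and all day 7 arrays, and the control arrays, from 7.26 to 7.77, overlapped every other group. The day 3 mean was 0.38 below that of withdrawal (difference -0.38 ± 0.13, 95% interval -0.66 to -0.11, 1.3-fold, limma adjusted p = 0.17). The day 7 mean was 0.28 above that of day 3 (0.03 to 0.54, limma adjusted p = 0.659). Withdrawal and control differed by 0.18 (-0.10 to 0.46, limma adjusted p = 0.536).

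Plin4, a perilipin best known from white adipocytes, had the largest difference of the 10 genes from the control group. Control arrays measured 4.87, 5.43, 4.55 and 4.72, withdrawal arrays 4.73, 4.37 and 3.83, day 3 arrays 3.94, 3.48, 4.32 and 3.99, and day 7 arrays 4.94, 4.55, 4.25 and 3.81. Each day 3 array lay below each control array, whereas the withdrawal and day 7 arrays overlapped both groups. The day 3 mean was 0.96 below the control mean (difference -0.96 ± 0.26, 95% interval -1.51 to -0.41, 1.94-fold, limma adjusted p = 0.174). In 18 alternatives this adjusted p ran from 0.0707, with Adipoq as a covariate, to 0.349. The group means fell in the order control (4.89), day 7 (4.39), withdrawal (4.31) and day 3 (3.93), and no neighbours in that order differed by more than 0.51, with limma adjusted p-values of 0.844, 0.951 and 0.621 in turn.

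Plin1, the adipocyte perilipin that is also made in steroid-producing cells, measured 6.61, 5.39, 6.48 and 6.42 in controls, 5.98, 5.71 and 5.42 at withdrawal, 5.70, 6.28, 6.66 and 6.28 at day 3, and 6.18, 6.20, 5.69 and 5.63 at day 7. Control replicate 2 was the lowest of all 15 arrays, and the other 3 controls lay above every withdrawal array. Withdrawal and control differed by -0.52 (95% interval -1.11 to 0.08, 1.43-fold, limma adjusted p = 0.376) with that array and by -0.80 without it (limma adjusted p = 0.0716). Day 3 was 0.53 above withdrawal (-0.07 to 1.12, limma adjusted p = 0.435). Plin3, a perilipin present in most tissues and also found in the cytosol, stayed within a narrow range. Its values were 6.22 to 6.35 in controls, 5.80 to 6.29 at withdrawal, 5.82 to 6.27 at day 3 and 6.12 to 6.49 at day 7. All of its groups overlapped, with differences from -0.16 to 0.24.

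Dgat1 and Dgat2 encode unrelated enzymes that catalyse the same last step of triglyceride synthesis. Dgat1 measured 5.76, 5.86, 5.63 and 5.70 in controls, 5.48, 5.61 and 5.03 at withdrawal, 5.68, 5.54, 5.77 and 6.04 at day 3, and 5.70, 5.82, 5.67 and 5.21 at day 7. Withdrawal replicate 3 was the lowest array, and the highest withdrawal array, at 5.61, lay just under the lowest control at 5.63. The difference between withdrawal and control was -0.36 (95% interval -0.71 to -0.02, 1.29-fold, limma adjusted p = 0.268), and without withdrawal replicate 3 it was -0.19 (limma adjusted p = 0.668).

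Dgat2 and Cidec varied widely between arrays of the same group. Dgat2 measured 4.70, 5.39, 4.35 and 4.57 in controls, 5.64, 4.58 and 4.38 at withdrawal, 5.01, 3.55, 5.54 and 5.19 at day 3, and 4.72, 4.70, 4.83 and 4.57 at day 7. Cidec, whose product joins small droplets into large ones in white adipocytes, measured 6.23, 6.51, 4.84 and 5.81 in controls, 7.03, 6.74 and 5.56 at withdrawal, 6.32, 4.53, 7.10 and 6.75 at day 3, and 5.65, 5.65, 6.17 and 5.43 at day 7. Day 3 replicate 2 had the lowest value of both genes on any array. The SD within day 3 was 0.88 for Dgat2 and 1.14 for Cidec, and that within day 7 was 0.11 and 0.31. The difference of Cidec between withdrawal and control was 0.59, with a 95% interval from -0.54 to 1.73 (limma adjusted p = 0.644). Between day 3 and withdrawal Cidec differed by -0.26 with day 3 replicate 2 and by 0.28 without it (limma adjusted p = 0.898 and 0.847).

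Plin1 and Cidec are both made in fat cells, so their arrays were compared with markers of fat tissue that a dissected gland can carry along. Adipoq, the gene of the adipocyte hormone adiponectin, measured 5.94, 5.91, 5.50 and 6.05 in controls, 6.28, 5.85 and 5.51 at withdrawal, 6.03, 4.88, 6.45 and 5.94 at day 3, and 5.89, 5.74, 5.97 and 5.13 at day 7. It was above the median level of all genes (2.44) on every array, lowest on day 3 replicate 2, and it overlapped between all groups. The adipocyte hormone gene Retn measured 6.27 to 7.02 at withdrawal, above all controls (5.64 to 6.19) and all day 7 arrays (5.27 to 6.26). Of all genes, 15.1% and 12.3% were separate in these comparisons. The Retn differences did not pass (0.71 and -0.68, limma adjusted p = 0.306 and 0.407). Its day 3 arrays (5.09 to 6.69) overlapped every group, and Fabp4 and Lep overlapped between all groups. Of 20 white and general adipocyte markers 18 were measured, and 0 passed the test in any of the 6 comparisons. The list's median difference was 0.18 at withdrawal against control (all genes -0.01). Against withdrawal it was -0.05 at day 3 (all genes -0.01) and -0.25 at day 7 (all genes 0.00). Their summed log2 levels were 78.25 to 87.91 in controls, 84.06 to 91.91 at withdrawal, 78.66 to 89.69 at day 3 and 79.73 to 87.48 at day 7. Of these markers Lep, Acvr1c and Ffar4 were below the median gene in all groups. Cfd and Adrb3 were not analysed here.

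Across the 15 arrays, the levels of Cidec and Dgat2 rose and fell with Adipoq, while the correlation of Plin1 with it was weak. For Cidec, Pearson's r was 0.85 (permutation p = 7e-05) and Spearman's rho 0.80 (permutation p = 0.0006). Without the 2 arrays farthest from the Adipoq median (day 3 replicate 2 and day 7 replicate 4) r was 0.80, and for deviations from the group means it was 0.88. For Dgat2, r was 0.84 (permutation p = 0.00013), rho was 0.75 (permutation p = 0.00209), r without those arrays was 0.81 and r for deviations from group means was 0.84. Cidec and Dgat2 correlated with each other at r = 0.88. Plin1 gave r = 0.19 (permutation p = 0.504) and rho = 0.21 (permutation p = 0.459), with 0.28 without those arrays and 0.21 within groups. For Plin4 r was 0.53 (permutation p = 0.0413) but rho was 0.34 (permutation p = 0.216), and r was 0.12 without those 2 arrays, so the pooled relation rests on them. For deviations from the group means, r of Plin4 was 0.75 with all arrays. The remaining 6 genes had r from -0.02 for Abhd5 to 0.48 for Dgat1. For deviations from the group means these 6 had r from 0.10 for Abhd5 to 0.63 for Dgat1 and 0.68 for Pnpla2 (0.44 over all arrays). The p-values are two-sided and unadjusted, 10 such correlations were computed, and both values of each point come from the same array and its normalization. Group comparisons with Adipoq as a covariate, a fit chosen after the data were seen, also gave 0 of the 10 genes past the threshold in any comparison.

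**Figure D3:**
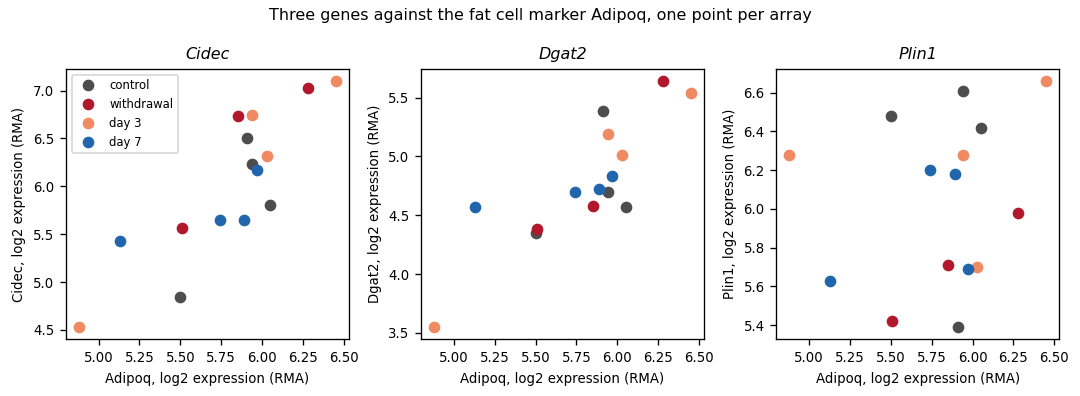
Log2 expression of Cidec, Dgat2 and Plin1 (y axes) against that of Adipoq (x axis), with 1 point for each of the 15 arrays coloured by group. Cidec (r = 0.85) and Dgat2 (r = 0.84) rise with Adipoq over all groups, and the points of Plin1 (r = 0.19) are scattered.

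The gland samples also differed in the brown fat markers Ucp1 and Cidea. The rest of the brown list is given here only by sums and counts, apart from Ppargc1a. Ucp1, the uncoupling protein of brown fat, was highest on control replicates 1, 2 and 4 (4.28, 3.58 and 5.38) and on day 3 replicate 3 (4.79), and between 1.16 and 2.51 on the other 11 arrays. Cidea, a droplet protein abundant in brown fat, was 3.88 and 3.96 on control replicates 1 and 4 and 4.74 on day 3 replicate 3, and between 1.42 and 2.46 elsewhere. Over the 15 arrays Plin1 correlated with Cidea at r = 0.69, Lipe at 0.57, Pnpla2 at 0.42, Dgat1 at 0.38, Cidec at 0.35 and Plin4 at 0.33. The rest of the droplet genes had r from -0.06 for Plin2 to 0.29 for Dgat2. These correlations were not tested. All 10 brown adipocyte markers were measured, and 6 of them (Elovl3, Otop1, Dio2, Kng2, Zic1 and Ppargc1a) were below the median gene in all groups. At withdrawal against control 1 of the 10 passed the test (4.30% of all genes). This was Ppargc1a, which rose by 0.60 (limma adjusted p = 0.0229), and the list's median difference was -0.03. Ucp1 and Cidea were lower by 2.16 and 1.07 there without passing (differences -2.16 and -1.07, limma adjusted p = 0.172 and 0.384), and 0 of the 10 passed in the other 5 comparisons. The summed log2 levels of the list were 27.41 to 34.11 in controls, 26.79 to 28.78 at withdrawal, 26.28 to 32.73 at day 3 and 27.24 to 28.58 at day 7. No withdrawal or day 7 array had both Ucp1 and Cidea above 3. Without the 3 arrays that had (control replicates 1 and 4 and day 3 replicate 3, left out after the data were seen), the withdrawal against control difference was -0.23 for Plin1 (limma adjusted p = 0.82), -0.34 for Lipe (0.38), -0.32 for Abhd5 (0.185) and 0.76 for Cidec (0.673). That fit had 2 control arrays and again called 0 of the 10 genes in any comparison. The day 3 against control difference of Plin4 was -1.19 in it (limma adjusted p = 0.345).

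**Figure D4:**
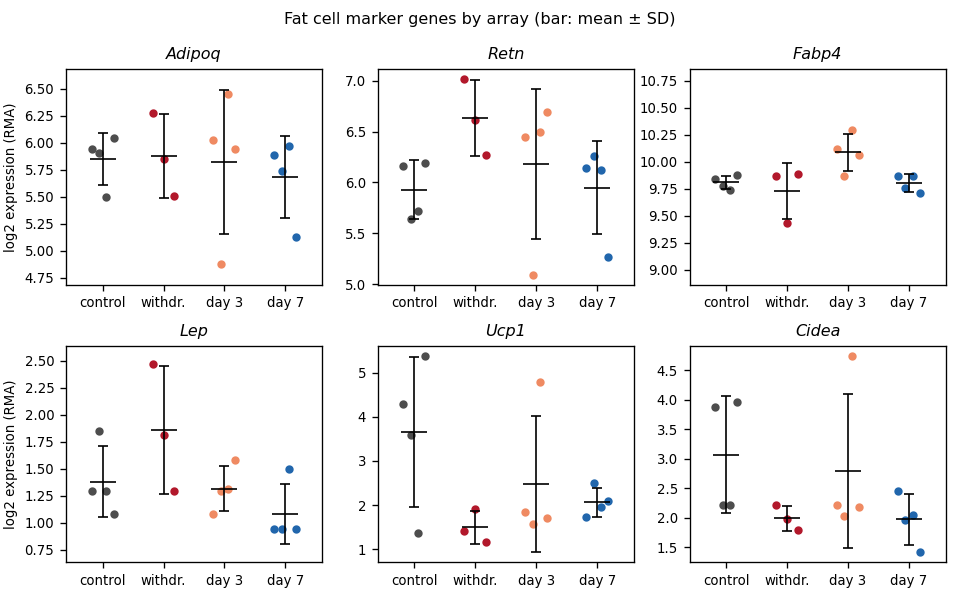
Log2 expression (RMA, y axes) of 4 general or white adipocyte markers (Adipoq, Retn, Fabp4 and Lep) and 2 brown adipocyte markers (Ucp1 and Cidea) on each array of the 4 groups, with a bar for the mean ± SD. Ucp1 is highest on control replicates 1, 2 and 4 and on day 3 replicate 3 (4.79). Cidea is highest on control replicates 1 and 4 and on day 3 replicate 3 (4.74).

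Markers of other cells of the gland differed between the groups. The test called 4.30% of all genes at withdrawal against control. At withdrawal against control, 14 of 20 macrophage markers rose and 0 fell, with summed log2 levels of 100.05 to 101.98 in controls and 124.46 to 130.00 at withdrawal. These sums were 112.58 to 123.01 at day 3 and 105.51 to 119.63 at day 7. Of 11 measured cortex markers 7 fell and 1 rose at withdrawal (sums of 99.63 to 100.57 in controls, 92.29 to 94.44 at withdrawal, 99.27 to 100.81 at day 3 and 98.85 to 99.64 at day 7). Of 10 measured medulla markers 3 rose at withdrawal. Lipe and Abhd5 were lowest on the same 3 arrays on which the cortex sum was low and the macrophage sum high. Dgat1 was below the controls on them, but also low on day 7 replicate 4 (5.21) and day 3 replicate 2 (5.54). The part of these marker differences in the values of Lipe, Abhd5 and Dgat1 was not tested. Macrophages also hold lipid droplets, and Plin2, Lipa and Abhd5 are made in them.

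Some genes of other proteins of the droplet surface and its assembly passed the threshold. Whether this list differs from the 10 genes, of which 0 passed, was not tested. Of 23 genes listed, 20 were measured. At withdrawal against control, where 4.30% of all genes passed, 1 rose, 2 fell and 17 did not pass. The median difference was -0.15 (all genes -0.01). Plin5, the perilipin of tissues that burn fat, measured 4.22, 4.68, 5.38 and 4.68 in controls, 3.26, 3.66 and 3.24 at withdrawal, 3.33, 3.32, 3.66 and 3.18 at day 3, and 4.46, 3.44, 3.77 and 3.10 at day 7. All withdrawal and day 3 arrays lay below all controls, and 1 of the 4 day 7 arrays overlapped the controls. Plin5 fell by 1.35 on the log2 scale at withdrawal (difference -1.35 ± 0.28, 2.55-fold, limma adjusted p = 0.0142), and its day 3 difference from control was as large but did not pass (-1.37, limma adjusted p = 0.0625). Without withdrawal replicate 1 or 3 the withdrawal difference missed the threshold (limma adjusted p = 0.0555 and 0.0522).

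G0s2 encodes an inhibitor of the lipase made from Pnpla2, and Fitm2 a membrane protein needed for droplets to bud from the endoplasmic reticulum. G0s2 measured 6.76, 6.78, 6.48 and 6.93 in controls, 7.71, 7.80 and 7.02 at withdrawal, 7.16, 7.02, 6.97 and 6.76 at day 3, and 6.71, 6.65, 6.78 and 6.70 at day 7. It rose by 0.77 ± 0.16 at withdrawal (1.71-fold, limma adjusted p = 0.0147) and fell by 0.80 from withdrawal to day 7 (limma adjusted p = 0.0214), with withdrawal arrays above every control and day 7 array. The rise missed the threshold without withdrawal replicate 1 or 2 (limma adjusted p = 0.0693 and 0.0867). The later fall missed it without withdrawal replicate 1 or 2 (0.0903 and 0.11) or day 7 replicate 1, 2 or 4 (0.0542, 0.0551 and 0.0533). Fitm2 ran the other way. It measured 6.23, 6.22, 5.47 and 5.95 in controls, 5.44, 5.31 and 4.83 at withdrawal, 6.13, 6.28, 5.84 and 6.11 at day 3, and 5.92, 5.90, 6.24 and 6.28 at day 7, so that every withdrawal array was below every other. Fitm2 fell by 0.78 at withdrawal (limma adjusted p = 0.0322) and rose by 0.90 to day 3 and 0.89 to day 7 (0.0235 and 0.0266). Of the fits without 1 array, those without withdrawal replicate 2 or 3 or control replicate 1, 2 or 4 lost the fall (0.0655 to 0.139), those without withdrawal replicate 2 or 3 or day 3 replicate 1, 2 or 4 lost the rise to day 3 (0.0571 to 0.104), and those without withdrawal replicate 2 or 3 or day 7 replicate 3 or 4 lost the rise to day 7 (0.0587 to 0.105). From withdrawal to day 3, where 2.25% of all genes passed, the list had 3 genes that rose and 0 that fell. Beside Fitm2 these were Hsd17b7 (1.31 ± 0.23, limma adjusted p = 0.00717) and Nsdhl (0.83 ± 0.19, limma adjusted p = 0.0324), which encode enzymes of cholesterol synthesis. Nsdhl kept its call only in the fit without day 3 replicate 3 among the fits without 1 array (0.0507 to 0.116 in the others), and Hsd17b7 in all of them.

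**Figure D5:**
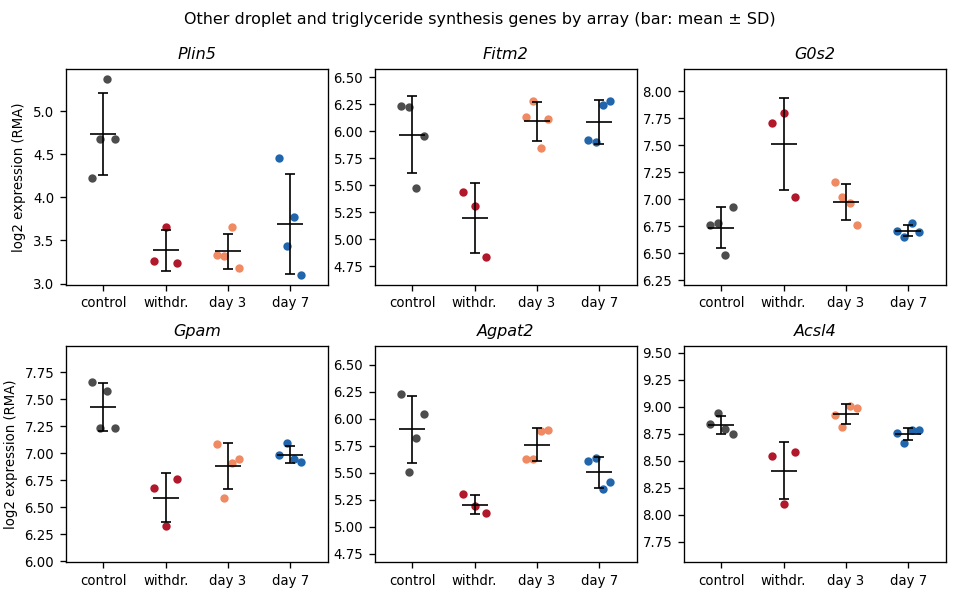
Log2 expression (RMA, y axes) of Plin5, Fitm2, G0s2, Gpam, Agpat2 and Acsl4 on each array of the 4 groups, with a bar for the mean ± SD. At withdrawal G0s2 lies above all controls and the other 5 genes lie below all controls.

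Of the 18 listed enzymes that make triglyceride or its precursors beside Dgat1 and Dgat2, 16 were measured. At withdrawal against control 4 fell, 0 rose and 12 did not pass, where 4.30% of all genes passed. The median difference was -0.09 (all genes -0.01). Gpam, which encodes the mitochondrial enzyme of the first acylation step, measured 7.66, 7.24, 7.58 and 7.24 in controls, 6.68, 6.33 and 6.76 at withdrawal, 7.09, 6.59, 6.91 and 6.95 at day 3, and 6.99, 7.10, 6.95 and 6.92 at day 7. Every control array exceeded every array of the other 3 groups. Gpam fell by 0.84 at withdrawal (difference -0.84 ± 0.14, 1.79-fold, limma adjusted p = 0.00383) and passed in all 17 alternatives, with adjusted p-values up to 0.046. Its day 3 level remained 0.54 below control without passing (limma adjusted p = 0.128). Agpat2, of the next acylation step, fell by 0.69 (limma adjusted p = 0.0147), but missed the threshold without withdrawal replicate 2 or 3 (0.0596 and 0.0527). Lpin2, a phosphatidate phosphatase, fell by 0.62 (limma adjusted p = 0.0489), a call lost without any 1 of the 3 withdrawal arrays or control replicate 1 or 2 (0.0813 to 0.169). Acsl4, which activates arachidonate and is high in steroid-producing cells, fell by 0.42 (limma adjusted p = 0.0446) and rose by 0.53 to day 3 (0.0227). Its fall was lost without any 1 of withdrawal replicates 1 and 2 or the 4 controls (0.0516 to 0.195), and its rise without withdrawal replicate 2 or day 3 replicate 3 or 4 (0.0574 to 0.0917).

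Of 17 other lipase genes listed, which include the acid lipase gene Lipa, 15 were measured. Lipa, the lysosomal acid lipase that frees cholesterol from internalised lipoproteins, rose by 0.48 at withdrawal (limma adjusted p = 0.0394), and Abhd6, a monoacylglycerol lipase, rose by 0.43 from withdrawal to day 3 (limma adjusted p = 0.04). In each of these comparisons the other 14 did not pass (4.30% and 2.25% of all genes passed), and 0 of 15 passed at day 7 against withdrawal (1.88%). Lipa lost its call without withdrawal replicate 1 or 2 or control replicate 2, 3 or 4 (0.0722 to 0.173), and Abhd6 in each of its 7 fits without 1 array (0.052 to 0.159). The mean of Abhd6 was 7.32 in controls, 6.95 at withdrawal and 7.38 at day 3. Its difference between withdrawal and control did not pass (-0.37, limma adjusted p = 0.0576).

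For cholesteryl ester storage and use, 10 of 13 listed genes were measured, and Soat1 and Soat2, which make cholesteryl esters, were not analysed here. At withdrawal against control 2 rose, 3 fell and 5 did not pass, where 4.30% of all genes passed. The median difference was -0.02 (all genes -0.01). The lists share genes, so some calls are counted more than once. Lipa is also in the lipase list, Scarb1 and Star are also cortex markers, and Ppargc1a is both a brown adipocyte marker and a listed regulator. Scarb1, the receptor for lipoprotein cholesteryl esters, measured 10.03 to 10.38 in controls, 7.97 to 8.78 at withdrawal, 10.02 to 10.16 at day 3 and 9.86 to 10.38 at day 7. It fell by 1.74 at withdrawal (difference -1.74 ± 0.17, 3.34-fold, limma adjusted p = 6.12e-05), rose by 1.65 to day 3 and 1.62 to day 7, and passed in all 17 alternatives of each of these comparisons. Star, which carries cholesterol into mitochondria, also fell at withdrawal (-0.36, limma adjusted p = 0.0198), a call lost without withdrawal replicate 1 or 3 (0.0707 and 0.0557). It rose by 0.36 to day 7 (limma adjusted p = 0.0331), a call lost in each of 7 fits without 1 array (0.0585 to 0.107). The cholesterol carriers Stard4 (-0.64, limma adjusted p = 0.0361) and Stard5 (0.72, limma adjusted p = 0.0321) moved in opposite directions, and each passed in only 2 of 7 fits without 1 array. Stard4 lost its call without withdrawal replicate 1 or 3 or control replicate 1, 3 or 4 (0.0533 to 0.134), and Stard5 without any withdrawal array or control replicate 1 or 4 (0.0582 to 0.127). Stard4 rose by 0.78 to day 3 (limma adjusted p = 0.0203), and lost that call without withdrawal replicate 1 or 3 or day 3 replicate 1 or 4 (0.0564 to 0.084). Of 22 regulators of droplets and lipases 17 were measured. Prkar2b, a regulatory subunit of protein kinase A, fell by 1.20 at withdrawal (limma adjusted p = 0.000678) and rose by 1.25 to day 3 and 1.23 to day 7 (0.00142 and 0.00171), in all 17 alternatives of each. The rise of Ppargc1a at withdrawal was at levels below the median gene, and its call was lost without withdrawal replicate 2 or control replicate 1 (0.0926 and 0.064). Over the 17 alternatives of withdrawal against control, Plin5 passed in 15, G0s2 and Agpat2 in 13, Star in 12, Fitm2 and Stard4 in 9, Lipa and Stard5 in 7, and Lpin2 and Acsl4 in 6, and Ppargc1a passed in 10 of its 16. Without the arrays with brown fat markers, Plin5 passed and the other 10 of these genes did not. In these 5 lists of other genes, 0 passed at day 3 against control, day 7 against control or day 7 against day 3.

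By Pearson's r over the 15 arrays, the genes most like the 3 members with the largest range of group means were these, given as a description. They are the highest values of a search over all genes with a mean above the median of all genes. Members, predicted genes and clone names were left out of it. How high the best r of such a search would be without any relation was not tested. For Plin4 they were Abhd14b (0.88), Kcmf1 (0.84) and As3mt (0.84), for Cidec Zfp429 (0.86), Adipoq (0.85) and Il15 (0.84), and for Plin1 Rab6b (0.88), Tnfrsf19 (0.83) and Spred2 (0.83).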

How the data were processed

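RNA from whole adrenal glands was hybridised to 15 one-colour Affymetrix arrays. The deposited values are log2 intensities made by the authors with robust multi-array average (RMA) in oligo, per the submitters' processing notes, with versions, probe filters and annotation not stated there. Of 32736 probe sets, 22399 carried 1 gene symbol in the platform annotation and only these were used, at 1 probe set per gene (highest mean), which left 21439 genes. Differences were fitted with limma 3.58.1 (lmFit, eBayes, R 4.3.3) over all 15 arrays in 1 model of 4 groups, with no replicate block. P-values were adjusted over all genes (Benjamini-Hochberg, threshold 0.05). The test was run on simulated data first. Correlations with Adipoq used 100000 permutations of arrays. Promoter windows are those of RefSeq (GRCm38.p6).

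The genes named are the 10 members, and of each other list the up to 4 with the largest change among those past the threshold per comparison. Adipoq, Retn, Fabp4, Lep, Ucp1 and Cidea are named always, as the check for fat tissue, and the 3 genes most correlated with each of 3 members as a description. Star at withdrawal against control was added to them after its values were seen. The members and all lists were chosen with earlier results of these data known. The alternatives were centring or quantile-normalizing the arrays, leaving out dim probe sets, other probe sets per gene, fits of 2 groups alone, eBayes with trend and robust options, a replicate block and leaving out each array. A further 2, chosen after seeing the data, left out the arrays with Ucp1 and Cidea both above 3 (called arrays with brown fat markers) or used Adipoq as a covariate. The number of arrays limits the precision. Levels of different probe sets were compared only to place markers above or below the median of all genes.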

Additional observations from a re-analysis of the deposited data

Results flagged for a closer look

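Within groups of 4 arrays, 11 of 144 gene and group combinations examined had 1 array far from the other 3, by Dixon's ratio of gap to range at 95%, which chance gives in about 1 in 20. Of the 10 droplet genes this held for Plin1 alone, at 5.39 on control replicate 2 (other controls 6.42 to 6.61). Control replicate 2 also stood apart for the cortex gene Mrap (8.92, others 9.18 to 9.22) and the macrophage marker Lgals3 (2.12, others 1.52 to 1.57). The brown fat markers Ucp1 (4.79, others 1.57 to 1.85) and Cidea (4.74, others 2.03 to 2.22) were high on day 3 replicate 3. The adipocyte hormone gene Retn was low on day 3 replicate 2 (5.09, others 6.45 to 6.69) and on day 7 replicate 4 (5.27, others 6.12 to 6.26), the 2 arrays with the lowest Adipoq values (4.88 and 5.13). The lipase gene Abhd6 was 7.36 on day 7 replicate 4 (others 7.24 to 7.25). On day 7 replicate 3, Ddc was 6.65 (others 6.32 to 6.35), Ppargc1a 1.80 (others 1.58 to 1.61) and Lep 1.50 (others all 0.94).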

How the results depend on the processing

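Of 1050 refitted differences of the 10 genes, 1046 stayed on their side of the threshold and 4 newly passed. Those 4 were at withdrawal against control, where 2 of the 10 genes passed with each array centred on its median (Lipe and Abhd5), 1 with a further quantile normalization and 1 with dim probe sets left out (Lipe in both). In the fits without 1 array, 0 of the 10 genes passed in any comparison. No result reversed. A change of sign where both 95% intervals span 0 was counted as giving no direction, which applied to 56 refits of the 10 and other named genes, with main differences of at most 0.33. Same-numbered arrays did not deviate together over all genes (correlations -0.138 to 0.060), and no label says that the replicate numbers pair the samples. A link between same-numbered arrays that touches only some genes would not show in these correlations. The count of all genes called moved more. Withdrawal against control gave 921, and 524 with the 2 groups alone, 544 with a replicate block, 295 without arrays with brown fat markers, and 459 to 774 without 1 array. Day 3 against withdrawal gave 483, and 161, 257, 287 and 209 to 389 in the same order. Day 7 against withdrawal gave 404, and 154, 221, 230 and 200 to 415, with 635 when dim probe sets were left out. Day 3 against control gave 28, and 9, 4, 0 and 6 to 27, with 53 after centring, 76 without dim probe sets, 91 with trend and robust options and 6 with Adipoq as a covariate. Day 7 against control gave 4, and 0, 0, 0 and 0 to 9, with 2 under trend and robust options and 0 with Adipoq as a covariate. Day 7 against day 3 gave 0, and 1 without the arrays with brown fat markers and 0 to 7 without 1 array. The causes of these moves were not tested. Of 897 refitted counts of genes called in the other lists, 759 were within 1.5 times the reported count and 138 were not. With 3 or 4 arrays a group, the 95% intervals of the 10 genes reached as far as -1.85 and 1.73 on the log2 scale, both for Cidec.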

Other observations

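Markers of neighbouring organs were read as well. All 9 measured kidney markers were below the median gene in all groups. Of 9 measured liver markers 0 passed the test in any comparison, but their summed log2 levels ran from 22.83 to 50.33 within day 3, from 21.69 to 37.45 within the controls, from 25.36 to 27.37 at withdrawal and from 25.53 to 37.94 at day 7. The list's median difference was 0.74 at day 3 and 0.59 at day 7 against withdrawal, and 0.59 and 0.45 against control. It was -0.14 at withdrawal against control and -0.09 at day 7 against day 3. Medians of all genes lay between -0.01 and 0.01. The relation of the 10 genes to the liver markers was not tested. Smooth muscle and fibroblast markers summed to between 52.59 and 56.71 on all arrays, and 1 of 10, Cnn1, rose from withdrawal to day 3 (1.08 on the log2 scale, limma adjusted p = 0.0314). That call held in 8 of 17 alternatives, with adjusted p-values up to 0.173, and in 1 of 7 fits without 1 array. It was kept without day 3 replicate 1 (0.000998) and lost without any other day 3 or withdrawal array (0.0574 to 0.0976).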
